A study of Rattus norvegicus with 8 samples.

Results

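The liver of control rats was set against the small intestine of the same group of rats. Of the 8 arrays of the series, 6 entered the comparison, 4 of liver and 2 of small intestine, and on each of them only the channel that held RNA of control rats was read. The rats were male and 7 weeks old, and the labels name the strain as F334 in the growth protocol and as Wistar in the sample characteristics. Control rats (6 of 12) received the diluent, 10% ethanol, into the stomach once a day for 13 days, and their tissues were taken on day 14. The other channel of every array held RNA of the 6 rats that received lavender oil (LO) at 5 mg/kg in the same diluent. Intestinal tissue, rinsed with saline, came from a site at about 20 cm from the duodenum, and each liver gave 2 blocks. RNA was pooled within a group, and the labels name 2 liver pools, G1 and G2, without saying how they differ. Control RNA carried Cy3 on replicate 1 and Cy5 on replicate 2, so that each of 3 RNA pools (liver G1, liver G2, small intestine) was read once in each dye. Pooled RNA gives no measure of the spread between single animals. Unless another fit is named, the p-values rest on the spread between the 2 liver pools, each averaged over its arrays, and on a prior spread taken over all probes.

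The liver is made up mainly of hepatocytes, which release most plasma proteins into the blood, make bile acids, urea and glucose, and turn over drugs with cytochrome P450 and conjugating enzymes. The small intestine is lined by enterocytes, whose brush border carries digestive enzymes and nutrient transporters, with goblet, Paneth and hormone-producing cells among them and smooth muscle, nerve cells and lymphocytes beneath. Both epithelia descend from the gut endoderm and use transcription factors of the HNF4, FOXA and GATA families, while CDX2 marks the intestine and C/EBP factors are prominent in hepatocytes.

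Promoters of 5 genes are shown because these genes mark the extremes and the middle of the comparison: Alb (albumin, liver), Alpi and Fabp2 (intestinal alkaline phosphatase and the intestinal fatty acid-binding protein), Fabp1 (the liver fatty acid-binding protein, whose difference between the tissues did not pass the test) and Ctrb1 (chymotrypsinogen B, a product of the pancreas that was high in the intestine pool). The sequences are from RefSeq on build GRCr8 and hold 250 bases before and 50 bases from the annotated start, 5′ to 3′ along the gene. They lie at chr14:17906930-17907229 (minus strand), chr9:95224731-95225030 (minus), chr2:213724379-213724678 (plus), chr4:104749090-104749389 (plus) and chr19:56566929-56567228 (minus). Capitals mark matches, on either strand, to short motifs of gut and liver transcription factors. The letters searched were TTGCNNAA for the C/EBP factors of hepatocytes. For the nuclear receptor HNF4 they were CAAAGTCCA and for the forkhead factors of the FOXA family TGTTTGC. The intestinal homeobox factors of the CDX family were searched as TTTATG, and the zinc finger factors of the GATA family as AGATAA. An E-box, bound by helix-loop-helix factors such as those of acinar cells, was searched as CACCTG, and the TATA box of the core promoter as TATAAA.
Alb: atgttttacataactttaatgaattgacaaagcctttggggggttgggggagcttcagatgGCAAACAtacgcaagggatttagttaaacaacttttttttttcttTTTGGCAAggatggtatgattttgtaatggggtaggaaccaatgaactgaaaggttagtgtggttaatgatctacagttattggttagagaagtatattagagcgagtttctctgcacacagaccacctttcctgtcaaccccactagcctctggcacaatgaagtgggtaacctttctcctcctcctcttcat
Alpi: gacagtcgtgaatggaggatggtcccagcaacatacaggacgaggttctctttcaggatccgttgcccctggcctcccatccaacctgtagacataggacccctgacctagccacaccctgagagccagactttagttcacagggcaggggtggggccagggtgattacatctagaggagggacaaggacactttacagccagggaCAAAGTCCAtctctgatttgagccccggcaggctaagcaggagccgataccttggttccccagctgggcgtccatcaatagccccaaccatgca
Fabp2: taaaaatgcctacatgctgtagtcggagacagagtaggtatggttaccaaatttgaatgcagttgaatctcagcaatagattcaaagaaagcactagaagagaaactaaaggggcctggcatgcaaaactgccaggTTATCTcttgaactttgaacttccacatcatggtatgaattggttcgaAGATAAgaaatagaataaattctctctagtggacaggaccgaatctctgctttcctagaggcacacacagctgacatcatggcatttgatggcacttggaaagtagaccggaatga
Fabp1: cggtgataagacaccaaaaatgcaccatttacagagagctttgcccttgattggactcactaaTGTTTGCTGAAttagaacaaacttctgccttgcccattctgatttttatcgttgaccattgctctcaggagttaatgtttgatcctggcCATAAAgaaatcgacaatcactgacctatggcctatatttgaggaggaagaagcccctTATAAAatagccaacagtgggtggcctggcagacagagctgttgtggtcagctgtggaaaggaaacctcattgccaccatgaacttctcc
Ctrb1: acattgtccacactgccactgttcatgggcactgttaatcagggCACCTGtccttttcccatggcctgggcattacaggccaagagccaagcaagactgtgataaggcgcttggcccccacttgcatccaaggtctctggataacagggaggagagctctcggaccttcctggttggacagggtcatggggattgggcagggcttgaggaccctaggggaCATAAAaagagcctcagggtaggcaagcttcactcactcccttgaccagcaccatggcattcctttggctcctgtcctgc

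The Alb promoter held a C/EBP match at -144 to -137 from the start and a FOXA match at -189 to -183. The Alpi promoter held 1 match, to HNF4 at -44 to -36, and that of Fabp2 held 2 GATA matches, at -114 to -109 and -66 to -61. Fabp1 held a CDX match at -98 to -93, together with a FOXA and a C/EBP match that overlap each other and a TATA box at -40 to -35. Ctrb1 held an E-box and a CDX match. The shares over all genes put these matches in proportion, with the first window listed for each of 27457 genes. In the plasma protein, coagulation and complement lists the C/EBP letters were in 19 of 48 (39.6%) against 10.5% of all promoters. The FOXA letters were in 9 of those 48 (18.8%) against 4.80% of all. Over all genes higher in liver the shares were 12.2% for C/EBP and 5.76% for FOXA. Genes higher in intestine had 9.17% and 3.74%, and genes tested and not called 8.87% and 3.48%. The HNF4 letters were in 0 of those 48, in 1.03% of promoters of genes higher in liver, in 0.75% for intestine and in 0.38% of all. Among the 17 promoters of pancreatic acinar genes, 12 held the E-box (70.6%) against 18.7% of all promoters, and 8 held the TATA box (47.1%) against 14.3%. In the same 17, CDX letters were in 5 (29.4%) and GATA letters in 4 (23.5%, against 11.3% of all). The CDX letters did not set the tissues apart, at 8.23% of promoters of genes higher in liver and 8.23% of those higher in intestine, against 12.5% of all. A match of such short letters is a description of the window and not a binding site.

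Levels are given as scaled signal, the background-subtracted and dye-normalized fluorescence of the control channel after the 6 arrays were given 1 common distribution (quantile scaling), in arbitrary units that do not compare 1 gene with another. Differences are log2 liver minus small intestine, averaged over the dyes, with the standard error (SE) from limma over the 3 pools. The single intestine pool was assumed to vary as the liver pools do. A gene was called where the adjusted p was below 0.05 and the difference at least 2-fold. On the liver arrays, 45.2% to 57.9% of features were well above background, and on those of the intestine 61.0% to 67.7% were. No feature was saturated. The liver arrays lay on 1 slide with 1 scan day and the intestine arrays on another, so that slide, scan day and tissue cannot be told apart. The E1A control probes, which read spike-in RNA, differed between the tissues by -0.69 to 0.02 log2 over 10 probes. The 2 liver pools correlated at r = 0.977 across the 24993 probes tested, as a description across probes of the same array design, and differed by a median of 0.35 log2 without regard to sign. Liver and intestine correlated at 0.677 (G1) and 0.662 (G2), with a median difference of 0.98 log2.

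Of the 24993 probes tested, 3494 were higher in liver (14%) and 4989 were higher in small intestine (20%), which makes 33.9% called in either direction. The filter asked for 4 arrays in liver but for 2 in intestine. Through intestine alone entered 2612 probes (on no liver array) and 5564 (on 1 to 3), and through liver alone 529 (on no intestine array) and 290 (on 1). Of the 15998 probes well above background on all 6 arrays, 2681 of these calls were higher in liver and 1955 in intestine. Without a test, 3755 probes (15%) were at least 2-fold higher in liver in all 4 same-dye pairs of a liver and an intestine array, and 4856 (19.4%) in intestine. A gene symbol could be given to 6366 genes tested, each read by its probe of the highest mean level, of which 1197 were higher in liver (18.8%), 1348 were higher in intestine (21.2%) and 40% were called in all. By the fold alone, 20.1% of these genes were at least 2-fold higher in liver in all 4 pairs and 21.3% in intestine. The median difference over these genes was -0.02 log2, and that over all probes was -0.18 log2, which other scalings moved to -0.66 (no scaling) and -0.004 (75th percentile). Without scaling, 24.1% of calls were higher in liver in place of 41.2%, and with the filter on probes well above background on all 6 arrays the share was 58.4%. Of the called genes, 957 and 682 were well above background on every array of both tissues, 160 were so on every liver array and on no intestine array, and 374 on both intestine arrays and on no liver array. For those last 2 kinds only a lower bound of the fold can be given, and the bound reached 2-fold for 160 of 160 and for 259 of 374 genes. In bulk tissue, as here, fewer cells of a type and less RNA per cell cannot be told apart.

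**Figure D1:**
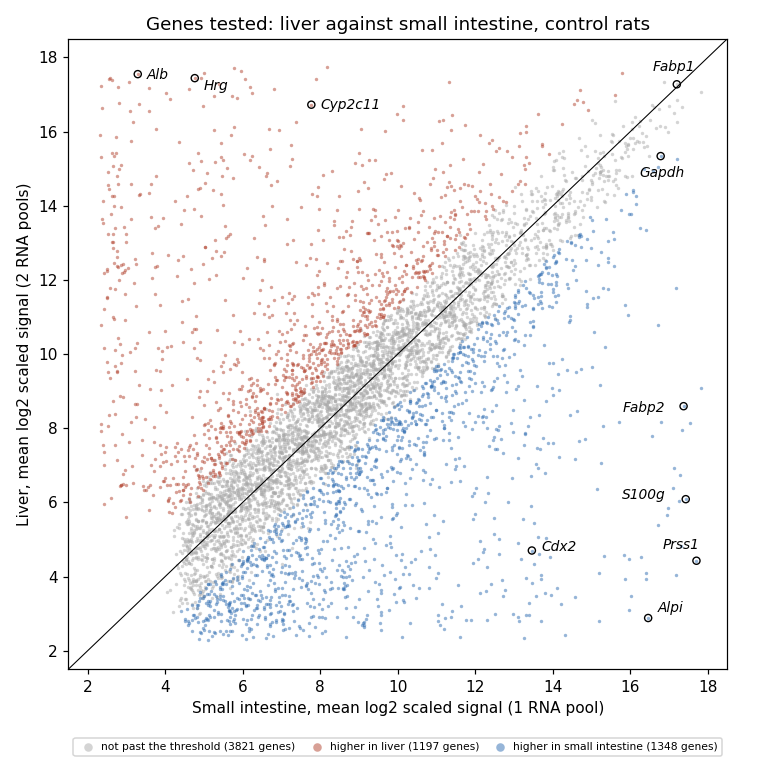
Mean log2 scaled signal of 6366 genes in small intestine (x axis, 1 pool) and liver (y axis, 2 pools) of control rats, 1 point a gene, coloured by the call, with the line of equal level. Named genes are circled: Alb and Hrg lie at the upper left, Alpi and Prss1 at the lower right, and Fabp1 on the line at the top.

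The 20 genes named for the widest differences in favour of liver, 10 by the fold and 10 by the bound, all encode proteins that hepatocytes secrete. Among the 10 measured on both intestine arrays were Hrg (histidine-rich glycoprotein), Fgb and Fgg (2 fibrinogen chains), Apoc1 (an apolipoprotein), Ttr (the thyroxine carrier transthyretin), Pzp (a protease inhibitor), Serpina1 and Serpina3n (serine protease inhibitors), Vtn (vitronectin) and C3 (complement component 3). Their differences ran from 11.01 log2 (C3, 2067-fold) to 12.68 log2 (Hrg, 6547-fold). Hrg had scaled signals of 190010 and 164780 in liver G1 (Cy3, then Cy5), 182720 and 175050 in liver G2, and 28.7 and 25.7 in the intestine pool. The liver and intestine values of Hrg were far from overlapping, with a difference of 12.68 ± 0.38 log2 (SE, adjusted p = 8.7e-05). Alb, which encodes the most abundant protein of plasma, had signals of 226100 and 186940 in liver G1, 199800 and 160280 in liver G2, and 8.14 and 11.8 in intestine, where it was not well above background on either array. Alb was at least 12138-fold higher in liver (adjusted p = 8.7e-05). The other 9 genes with the highest bounds were Mup4l4, Mup5, Mup4l3 and Mup4l1 (major urinary proteins, pheromone carriers), Ahsg and Fetub (fetuins A and B), Apoa2, Apoh and Gc (the vitamin D carrier), from at least 6779-fold (Gc) to at least 11257-fold (Mup4l4). Probes of the urinary protein family can share targets, so that its members are not fully separate measurements.

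By list, 17 of 17 plasma proteins tested, 14 of 14 coagulation factors and 14 of 14 complement genes were higher in liver, with medians of 12.58, 10.34 and 8.72 log2. With the genes at their bounds the medians were 12.54, 10.33 and 7.94. Across these lists Cfd (complement factor D, also made by fat cells) differed least, at 5639 in liver and 1902 in intestine (1.57 ± 0.38 log2, adjusted p = 0.028), and did not pass without scaling. Of the fibrinogen chains, Fga was 90.1-fold higher in liver (adjusted p = 2.9e-04), with Fgb at 5937-fold and Fgg at 3376-fold, and the differences among the 3 genes were not tested. Cfi and C1s, complement proteases, were well above background on both intestine arrays, with means of 2699 and 1492.

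**Figure D2:**
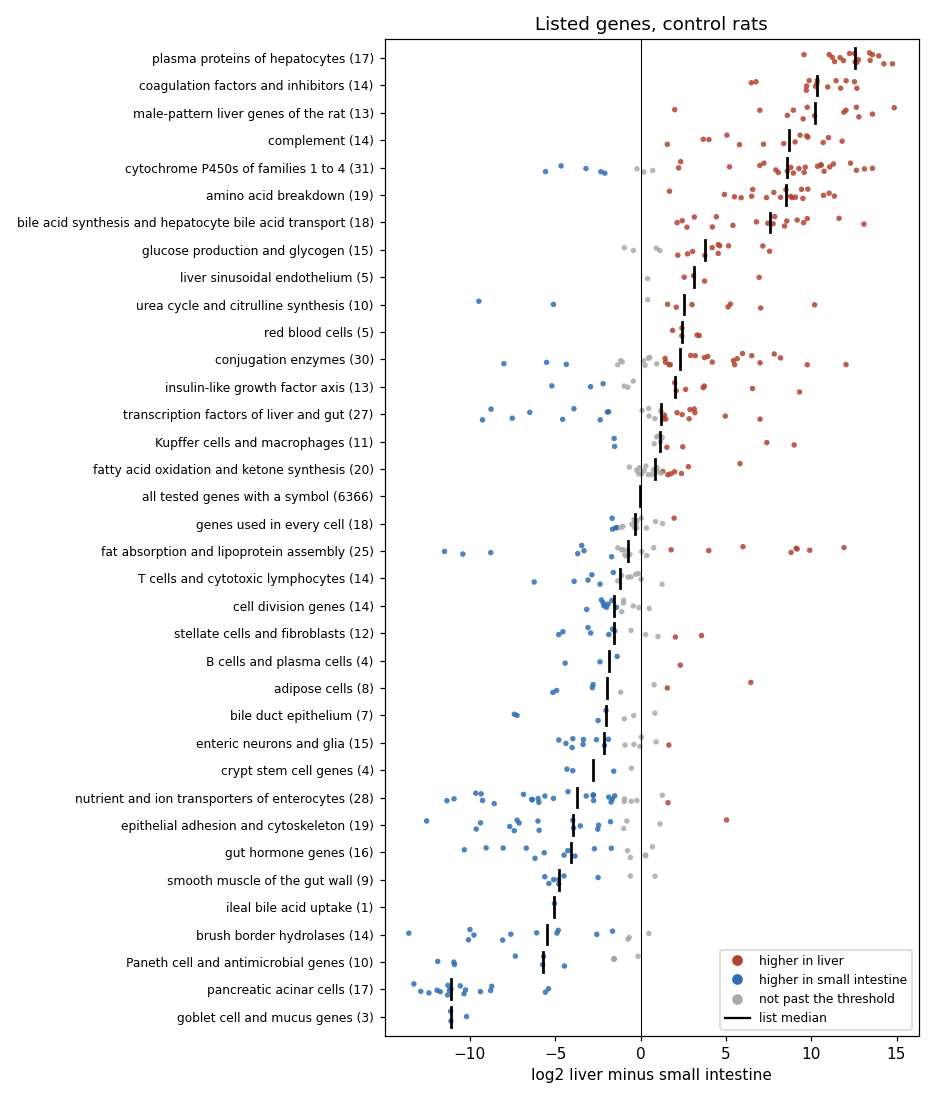
Log2 difference of liver minus small intestine for the tested members of 35 gene lists, 1 point a gene, with the number tested in brackets, the list median as a black bar and the call as colour. The median over all 6366 genes is at -0.02, the plasma proteins lie at 9.58 to 14.76, and the acinar genes at -13.28 to -5.39.

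Cytochrome P450 genes split between the tissues (31 tested, of families 1 to 4). Of these, 23 were higher in liver, 5 were higher in intestine and 3 were called in neither direction, with a median of 8.60 log2. Cyp2c11, the main P450 of the male rat liver, had 102260 and 127240 in liver G1, 91428 and 115870 in liver G2, and 210 and 228 in intestine. Those values did not overlap, and the difference was 8.95 ± 0.38 log2 (496-fold, adjusted p = 1.2e-04). Cyp2e1, the ethanol-oxidizing P450, had 52427 to 68545 in liver and was not well above background in intestine, which gives at least 3760-fold (adjusted p = 8.7e-05). Other drug-oxidizing members followed, with bounds of at least 3866-fold for Cyp2c13, 2625-fold for Cyp3a2, 524-fold for Cyp1a2 and 1025-fold for Cyp3a23-3a1.

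The reverse held for 2 members of the CYP3A family. Cyp3a62 had 713 and 765 in liver G1, 670 and 688 in liver G2, and 17737 and 17962 in intestine, a difference of -4.66 ± 0.38 log2 (25.2-fold higher in intestine, adjusted p = 8.8e-04). Cyp3a9 had 4265 to 7126 in liver and 47455 and 50429 in intestine, at 9.17-fold (-3.20 ± 0.44 log2, adjusted p = 0.0050). Within this family Cyp3a18 went the other way, 4.68-fold higher in liver. Cyp2j4, an arachidonic acid epoxygenase, was 5.00-fold higher in intestine (-2.32 ± 0.38 log2, adjusted p = 0.0085). Cyp1a1, which is switched on by ligands of the aryl hydrocarbon receptor, had 592 and 788 in intestine and was not well above background on any liver array, at least 22.1-fold higher in intestine. Its relative Cyp1a2, named above, was high in liver instead, and Cyp1b1 was at least 3.01-fold higher in intestine, though under 2-fold with normexp correction. Cyp4f1 was at 54311 and 47492 (mean of liver, mean of intestine), and Cyp4b1 and Cyp2d4 also fell short of the threshold (adjusted p = 0.70 and 0.27). For Cyp2b21, called 5.11-fold higher in liver, the second probe differed in the opposite sense.

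**Figure D3:**
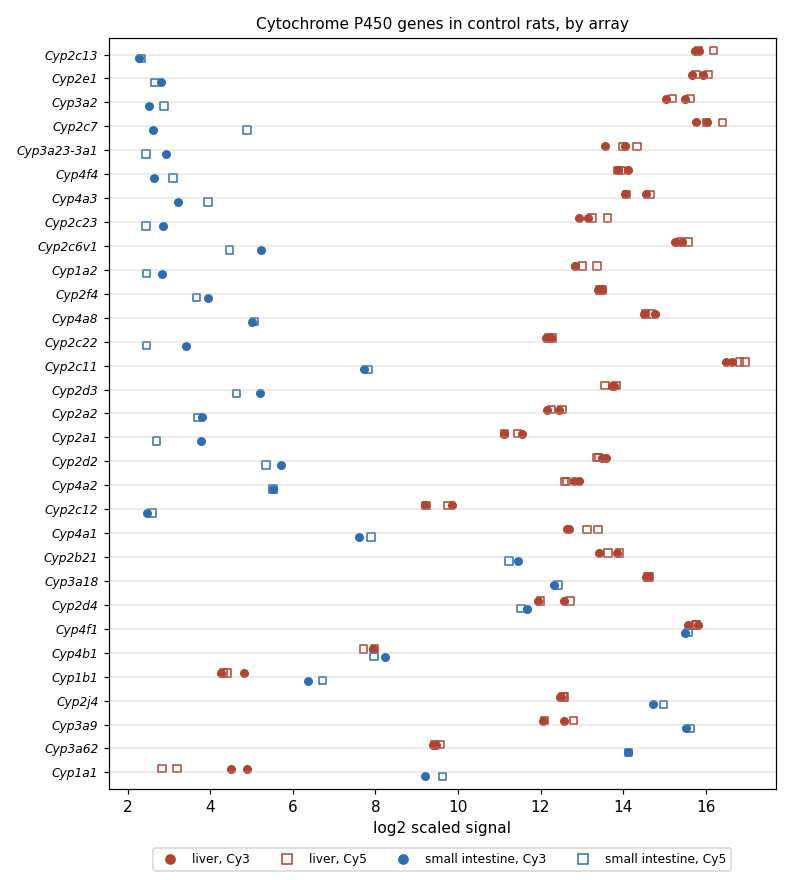
Log2 scaled signal of 31 cytochrome P450 genes on each of the 6 arrays (circles Cy3, squares Cy5; red liver, blue small intestine), ordered by the difference. The liver points lie to the right for the upper 23 genes and the intestine points for the lowest 5, down to Cyp1a1.

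Conjugating enzymes showed a similar division, on a smaller scale (30 tested, 19 higher in liver, 3 in intestine, median 2.34 log2). The liver side held the glutathione transferases Gstm1 (45.6-fold) and Gsta1 (62.9-fold), the sulfotransferases Sult1a1 (228-fold) and Sult1c3 (at least 1522-fold), and Ugt2b1, a glucuronosyltransferase (294-fold, measured on 1 of 2 intestine arrays). On the intestine side, Gstp1, the pi-class glutathione transferase, had 789 to 1073 in liver and 20342 and 18045 in intestine (20.4-fold, -4.35 ± 0.40 log2, adjusted p = 0.0013). Sult2b1, which sulfates cholesterol, was well above background on 1 of 4 liver arrays and had 6199 and 6336 in intestine (-8.01 ± 0.67 log2, adjusted p = 9.9e-04). Ugt2b7 was at least 12.9-fold higher in intestine. Sult1b1, Gsta2 and Gsta3 differed by 0.17 to 0.53 log2, with adjusted p of 0.37 to 0.75.

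Nitrogen metabolism divided by isoenzyme. Of 10 genes of the urea cycle and citrulline synthesis, 7 were higher in liver, 2 in intestine and 1 in neither. Ass1 (argininosuccinate synthase) had 54034 to 64848 in liver and 54.2 and 49.8 in intestine, a difference of 10.20 ± 0.38 log2 (1174-fold, adjusted p = 9.1e-05). Arg1, the liver arginase, was 132-fold higher in liver, whereas Arg2, the mitochondrial arginase, had 5372 and 4777 in intestine and was not well above background in liver (at least 164-fold higher in intestine, adjusted p = 1.1e-04). Gls2, the liver glutaminase, was 34.9-fold higher in liver. For Cps1 and Otc, the first steps of the cycle and of citrulline synthesis, the tissues were nearer to each other. Cps1 had a mean of 8410 in liver and 1038 in intestine (8.10-fold), and Otc 14905 and 4979 (2.99-fold).

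All 19 amino acid breakdown genes tested were higher in liver (median 8.52 log2), among them Hpd of tyrosine breakdown (2621-fold, measured on 1 of 2 intestine arrays), Tdo2, the first step of tryptophan breakdown (894-fold), and Bhmt, betaine-homocysteine methyltransferase (731-fold). Sds, serine dehydratase, differed least, at 3.24-fold (adjusted p = 0.027, not passed without scaling). All 18 genes of bile acid synthesis and hepatocyte bile acid transport tested were higher in liver too (median 7.61 log2, or 6.94 with bounds). Cyp7a1, the rate-limiting enzyme of bile acid synthesis, had 891 and 1143 in liver G1, 543 and 576 in liver G2, and was not well above background in intestine (at least 47.5-fold, adjusted p = 6.0e-04). The 2 liver pools differed by 0.85 log2 in Cyp7a1. Slc27a5, which couples bile acids to coenzyme A, was at least 4920-fold higher in liver, and Abcb11, the bile salt export pump, at least 333-fold. Fabp6, the bile acid-binding protein of the ileum, had a mean of 249 in intestine and was at least 8.04-fold higher there, while Slc10a2, the ileal bile acid transporter, was well above background on 3 liver arrays and no intestine array and was not tested.

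Of 15 genes of glucose production and glycogen, 11 were higher in liver and 4 were not called (median 3.77 log2). Pck1, which makes phosphoenolpyruvate for glucose synthesis, was 25.0-fold higher in liver, and G6pc1, the last step of glucose release, 13.7-fold, with an intestine mean of 1808. Khk (ketohexokinase), Pklr (a pyruvate kinase) and Slc2a2 (a glucose carrier) differed by -0.95 to 1.13 log2. None of them passed (adjusted p of 0.069 to 0.12). Khk did with the replicate number as a block (adjusted p = 0.0017). It also did under 75th percentile scaling, under normexp correction and with the control and LO channels together. Pklr passed under 75th percentile scaling (1.19 log2), and Slc2a2 without scaling (-1.41 log2) and with both channels together (-1.03 log2). Fatty acid oxidation had 7 of 20 genes higher in liver, none in intestine, and 13 not called, with a median of 0.86 log2. Acaa1a, a peroxisomal thiolase, was among the 7, with 59044 to 65859 in liver and 8548 and 9605 in intestine (2.81 ± 0.38 log2, 6.99-fold, adjusted p = 0.0047). Among the enzymes of the oxidation spiral, the dehydrogenases Acads and Acadvl, for short and very long chains, were 3.99-fold and 2.47-fold higher in liver (adjusted p = 0.014 and 0.049), though Acadvl did not pass without scaling or without either replicate. Acadm, for medium chains, and the thiolase Acaa2 were 1.99-fold and 1.96-fold apart (adjusted p = 0.098 and 0.10) and passed under 75th percentile scaling and under normexp correction. Acadl had means of 21082 and 22162, and Hadha 7125 and 7693 (liver, then intestine), and both turned sign under 75th percentile scaling. Of the 3 probes of Hadha, 2 had the opposite sign to the one read. In the insulin-like growth factor axis, Igf1 had 99297 to 114370 in liver and 1078 and 1171 in intestine (94.4-fold, adjusted p = 2.8e-04), and Igfals, its partner in plasma, was at least 380-fold higher in liver. Ghr, the growth hormone receptor, was 12.7-fold higher in liver. Igf2, Igfbp6 and Prlr (the prolactin receptor) were higher in intestine, by 4.57-fold, 7.61-fold and at least 12.9-fold. The 13 tested genes of the list of sex-patterned genes of the rat liver were all higher in liver (median 10.20 log2, or 8.95 with bounds), Srd5a1 (steroid 5-alpha-reductase) least, at 4.00-fold. Cyp2c12, known as the form of the female liver, was among them, with a mean of 729 in these males (at least 46.2-fold).

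Before the intestine-high genes, 1 feature of the intestine pool has to be stated. All 17 pancreatic acinar genes tested were higher in the intestine pool, with a median of -11.11 log2 (-10.56 with bounds), and their summed signal was 1560970 and 1795670 on the intestine arrays against 4019 to 5695 on the liver arrays. Prss1 (trypsinogen) had 208010 and 219940 in intestine and 39.7, 40.8, 20.1 and 6.58 in liver, where it was well above background on 1 of 4 arrays. Ctrb1 had 226100 and 235150 in intestine and 404 to 745 in liver (421-fold, -8.72 ± 0.42 log2, adjusted p = 1.7e-04). Ptf1a, a transcription factor of acinar cells, had 244 and 287 in intestine and was not well above background in liver (at least 8.55-fold). The intestine pool of the LO rats held the same genes at a summed 1232600 and 1445900, so both pools of intestine carried them. Of the 20 genes named for the widest differences in favour of intestine, 10 by the fold and 10 by the bound, 7 were on the acinar list (Prss2, Amy2a3, Cel, Ctrb1, Ctrl, Cpa1 and Clps). A further 3, Try10 (a trypsin), Dnase1 and Rnase1, encode secreted digestive or nucleic acid-cleaving enzymes that the list did not hold. Of 6 islet genes on the array, chosen after the acinar values had been seen, 5 were called higher in intestine: Ins1 (10.2-fold), Ins2 (7.26-fold), Pdx1 (-5.94 log2, measured on 1 of 4 liver arrays), Iapp (at least 2.61-fold) and Ppy (at least 3.45-fold). Pdx1 went to -4.82 or -7.07 log2 without liver G1 or G2, and Iapp and Ppy did not reach 2-fold under normexp correction. Nkx6-1 was not well above background on any array. The part of pancreatic RNA in the other intestine results was not tested.

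The other 10 of these 20 genes belong to the intestinal epithelium. They were S100g (calbindin-D9k, which carries calcium through the enterocyte), Tff3 (a goblet cell trefoil peptide), Krt20 (a keratin of mature villus cells), Fabp2, Guca2a and Guca2b (guanylin and uroguanylin, which drive chloride secretion), Alpi, Lgals4 (a galectin of the brush border), Rbp2 (the cellular retinol carrier) and Cdhr5 (a cadherin that links microvilli). S100g had 147570 and 211300 in intestine and 56.7 to 81.3 in liver (2597-fold, -11.34 ± 0.38 log2, adjusted p = 8.8e-05). Alpi, the classic brush border marker, had 105980 and 76642 in intestine and was not well above background on any liver array, at least 2914-fold higher in intestine (adjusted p = 8.7e-05). Its promoter is the one with the HNF4 match near the start. Among brush border hydrolases, 11 of 14 were higher in intestine and 3 were not called (median -5.49 log2). The meprins Mep1a and Mep1b, Ace (an angiotensin-cleaving peptidase) and Ggt1 were among the 11. Mep1b was at least 345-fold higher in intestine. Dpp4, Cndp2 and Xpnpep2, peptidases that hepatocytes also carry or release, differed by -0.74 to 0.49 log2 (adjusted p of 0.19 to 0.36). Enpep was called 3.12-fold higher in intestine, but 1 of its 3 probes had the opposite sign.

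Of 28 enterocyte transporters, 22 were higher in intestine, 1 in liver and 5 in neither, with a median of -3.72 log2. The apical carriers of peptides (Slc15a1, at least 319-fold), glucose (Slc5a1, at least 34.3-fold), cystine and dibasic amino acids (Slc3a1, at least 219-fold) and sulfate (Slc13a1, at least 36.1-fold) were not well above background on any liver array. Iron and calcium uptake genes were graded. Cybrd1, the duodenal ferric reductase, was 34.4-fold higher in intestine, Slc11a2, the divalent metal carrier, 6.75-fold, Slc40a1, the iron exporter ferroportin, 2.86-fold, and Trpv6, the apical calcium channel, at -4.25 log2 with 2 of 4 liver arrays measured. Slc2a2, the glucose carrier that both tissues use, had means of 1541 in liver and 2978 in intestine (adjusted p = 0.11), and its second probe had the opposite sign. Slc23a1, a vitamin C carrier, was 3.06-fold higher in liver (adjusted p = 0.026), a call lost without scaling.

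**Figure D4:**
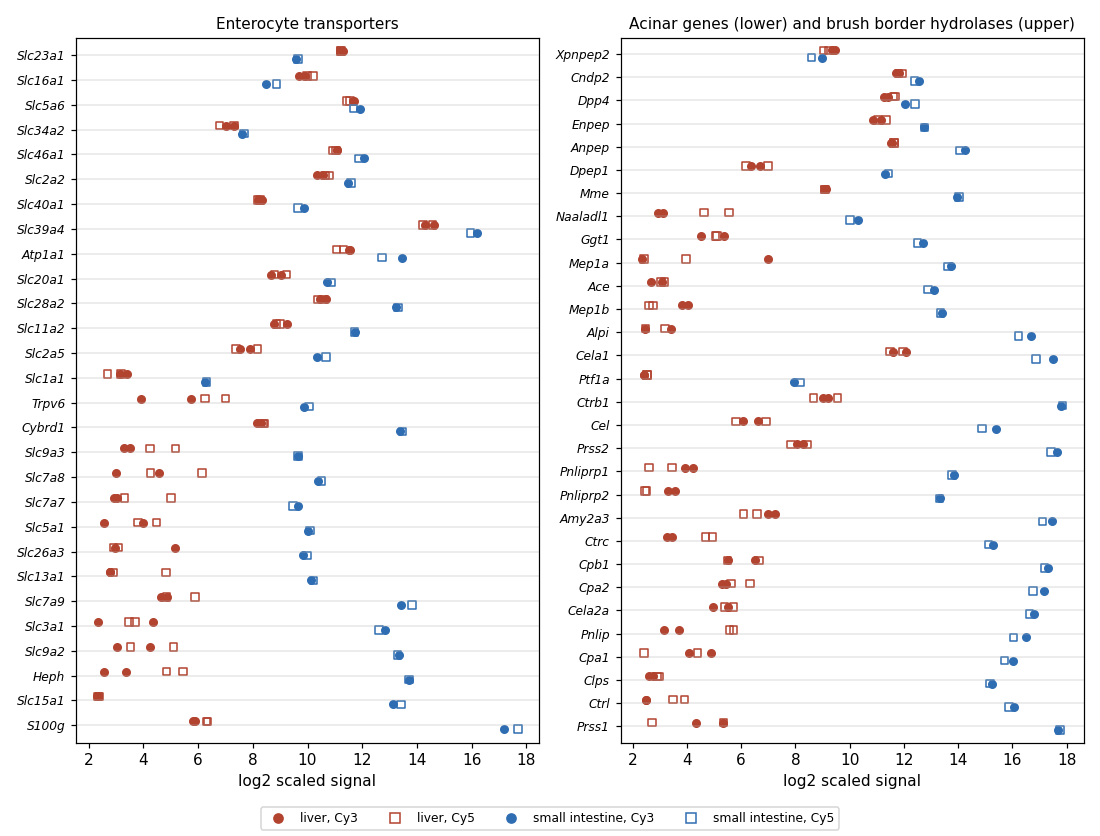
Log2 scaled signal on each of the 6 arrays (circles Cy3, squares Cy5; red liver, blue small intestine) for 28 enterocyte transporters (left) and for 13 of the brush border hydrolases above 17 pancreatic acinar genes (right). The intestine points lie between 14.88 and 17.84 for the acinar genes other than Pnliprp1, Pnliprp2 and Ptf1a, and Slc23a1 has its liver points on the right.

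Fat absorption and lipoprotein assembly, which both tissues carry out, leaned to neither side. Of 25 genes, 8 were higher in liver, 7 in intestine and 10 in neither, and the list median turned from -0.76 log2 to 0.59 under 75th percentile scaling. Fabp1 had 145140 and 175050 in liver G1, 145140 and 171380 in liver G2, and 115430 and 196200 in intestine. The intestine values of Fabp1 lay on both sides of the liver values, with a difference of 0.08 ± 0.38 log2 (adjusted p = 0.89). Under 75th percentile scaling, however, Fabp1 passed as higher in liver (1.38 log2, adjusted p = 0.023). Its relative Fabp2 had 361 to 417 in liver and 148330 and 194550 in intestine, 439-fold higher in intestine (-8.78 ± 0.38 log2, adjusted p = 1.2e-04). Apob, the scaffold of both chylomicrons and hepatic lipoproteins, had means of 45462 and 35137 (adjusted p = 0.51, with 2 of 5 probes of the opposite sign), and Apoa1 and Apoa4 differed by -0.63 and -0.76 log2 (adjusted p = 0.25 and 0.17), which turned to 0.59 and 0.62 under 75th percentile scaling. The cholesterol uptake protein Npc1l1 (17654 in intestine, at least 571-fold) and Rbp2 (at least 2005-fold) were well above background on both intestine arrays and on no liver array. Dgat1, which makes triglyceride, was 12.8-fold higher in intestine, whereas Dgat2 differed by 0.77 log2 (adjusted p = 0.17). Apoc1, Apoa5, Apom and Apoe, with the plasma enzymes Lcat and Lipc (measured on 1 of 2 intestine arrays), were 64.0-fold (Apoe) to 3873-fold (Apoc1) higher in liver.

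Secretory cells of the epithelium were represented on the intestine side. All 3 goblet genes tested were higher in intestine: Tff3 (1171-fold), Zg16 (2210-fold, measured on 3 of 4 liver arrays) and Clca4 (at least 782-fold). These were the only ones of 18 listed with a probe under their symbol, so that Muc2, Fcgbp and Spdef, for example, could not be read. Of 10 Paneth and antimicrobial genes, 8 were higher in intestine and 2 were not called. The defensins Defa6 and Defa24 were at least 430-fold and at least 608-fold higher, and the antibacterial lectin Reg3b had 19869 and 20724 in intestine (at least 656-fold). Defa5, set beforehand as a Paneth cell marker, and Defb1 were not well above background on any array and were not tested. The part of pancreatic RNA in the values of Zg16 and Reg3b was not tested. RatNP-3b, a defensin known from neutrophils, was higher in intestine by a difference of -7.34 ± 1.06 log2, but with 2 of 4 liver arrays measured and liver pools that differed by 2.66 log2. Without liver G1 or G2 its difference was -6.01 or -8.67 log2, and without replicate 2 it did not pass (adjusted p = 0.058). Hormone genes were higher in intestine for 11 of 16, and 5 were not called (median -4.05 log2, or -2.72 with bounds). Gip had 12362 and 12772 in intestine and 110 to 129 in liver (104-fold, adjusted p = 2.7e-04). Sct (secretin) was at least 149-fold, Sst (somatostatin) at least 122-fold, Chgb (a granule protein) at least 289-fold and Gcg (the glucagon precursor) at least 10.2-fold higher. Islet cells also make Sst, Gcg and Chgb, and the islet genes given above were higher in the same pool. Cck had 3698 to 6568 in liver and 7240 and 6745 in intestine (-0.59 ± 0.38 log2, adjusted p = 0.28), so this probe gave no difference between the tissues past the threshold.

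Transcription factors fell on both sides (27 tested, 11 higher in liver, 9 in intestine, 7 in neither). Cdx2, the intestinal homeobox factor, had 11346 and 11197 in intestine and 11.4 to 51.6 in liver, where 1 of 4 arrays was well above background (-8.76 ± 0.38 log2, adjusted p = 1.2e-04). Klf5 and Klf4, Kruppel-like factors of crypt and villus, were higher in intestine, Klf5 at least 102-fold and Klf4 183-fold (3 of 4 liver arrays measured). Vdr (the vitamin D receptor) and Elf3 were also higher in intestine, and Gata4 and Gata6 by 3.85-fold and 3.65-fold. On the liver side, Onecut1 (HNF6) had 2648 to 2924 in liver and 14.8 and 31.5 in intestine (7.00 ± 0.38 log2, 128-fold, measured on 1 of 2 intestine arrays). Foxa1 was at least 14.6-fold, Foxa2 7.46-fold and Foxa3 2.63-fold higher in liver, Cebpa 8.86-fold and Cebpb 9.09-fold. The drug and bile acid receptors Nr1i3, Nr1i2, Nr1h4 and Nr0b2 were 7.21-fold, 2.53-fold, 5.43-fold and 4.41-fold higher in liver. Foxa3 and Nr1i2 did not pass without scaling. Hnf4a, used by both epithelia, did not pass (1.39 log2, adjusted p = 0.063) unless the replicate number was a block (adjusted p = 0.012). Hnf4a had 416 and 393 in liver G1, 611 and 646 in liver G2, and 208 and 179 in intestine, so that its groups did not overlap although the difference missed the threshold.

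Epithelial structure and proliferation genes leaned to the intestine. Of 19 adhesion and cytoskeleton genes, 15 were higher in intestine, 1 in liver (Cldn1, at least 19.8-fold) and 3 in neither, with Epcam 151-fold, Krt19 168-fold, Cldn7 138-fold and Cdh17 5.49-fold higher in intestine. Krt18, the keratin of hepatocytes, differed by 1.14 log2 (adjusted p = 0.068, or 0.0019 with the replicate number as a block). Of 14 cell division genes, 8 were higher in intestine, none in liver, and 6 were not called (median -1.54 log2). Cdk1 was 4.57-fold and Plk1 4.42-fold higher, and Cdc20 and Mcm7 differed by -0.09 and -0.43 log2 (adjusted p = 0.88 and 0.44). Of 4 crypt genes tested, Ascl2, Cd44 and Prom1 were higher in intestine by 2.97-fold, 15.7-fold and 19.9-fold, with Prom1 measured on 3 of 4 liver arrays.

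Cells other than the epithelium also differed. Smooth muscle genes were higher in intestine for 7 of 9 (median -4.79 log2), with Actg2, the enteric actin, at 25598 and 24263 in intestine and 600 to 869 in liver (34.1-fold, adjusted p = 6.7e-04). Of 15 neuronal and glial genes, 9 were higher in intestine, such as Uchl1 (at least 5.69-fold) and Ret (at least 3.54-fold), and 1 in liver, Gfap (3.15-fold, measured on 1 of 2 intestine arrays and not passed under normexp correction). S100b and Nos1 of this list were not well above background on any array. Elavl3 and Nefl were not so on every array of either tissue, and none of these genes was tested. T cell and cytotoxic genes were higher in intestine for 6 of 14 and in liver for none. Cd2, Cd4 and Cd5 of this list were not well above background on any array. Cd247 was so on 1 intestine array only, and none of these genes was tested. Cd3g had 12509 and 13577 in intestine and 137 to 207 in liver (75.1-fold), yet Cd3d of the same receptor had means of 1050 and 1023 (adjusted p = 0.95). Gzmb, a granzyme of intraepithelial lymphocytes, was 14.8-fold higher in intestine with 3 of 4 liver arrays measured. Of 4 genes tested from the B cell and plasma cell list, 3 were higher in intestine, such as Mzb1 (at least 9.82-fold), and 1 in liver. The gene higher in liver was Pigr (5.04-fold), the immunoglobulin A transporter of epithelial cells. Of 11 Kupffer and macrophage genes, 4 were higher in liver and 2 in intestine, beside 18.8% and 21.2% of all genes. Clec4f, a lectin of rodent Kupffer cells, had 26191 to 29450 in liver and 76.2 and 38.4 in intestine (512-fold, adjusted p = 1.1e-04), and Vsig4 was at least 69.6-fold higher in liver. The general macrophage genes C1qa, C1qb, C1qc and Csf1r differed by 0.80 to 1.27 log2 and did not pass (adjusted p of 0.061 to 0.16). With the replicate number as a block, C1qa and Csf1r did (adjusted p = 0.0018 and 0.0086). Sinusoidal endothelium genes were higher in liver for 4 of 5, with Oit3 at least 67.3-fold. Bile duct genes were higher in intestine for 4 of 7, among them Krt19, Epcam and Aqp1, which intestinal tissue also expresses. Of 12 stellate cell and fibroblast genes, 2 were higher in liver (Reln and Ecm1) and 7 in intestine, such as Dcn (8.46-fold).

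Red blood cell genes were higher in liver, and adipose genes fell on both sides. The 5 red blood cell genes tested were all higher in liver, with a summed signal of 185991 to 206367 on the liver arrays and 38477 and 43562 on the intestine arrays. Hba-a3, an alpha globin, had 129220 to 153890 in liver and 29245 and 23874 in intestine (5.37-fold, adjusted p = 0.0078). Of 8 adipose genes tested, 4 were higher in intestine, among them Adipoq (at least 8.62-fold) and Fabp4 (at least 12.4-fold), 2 were higher in liver and 2 in neither. The differences in this list ran from -5.13 to 6.46 log2. Its summed signal was higher in liver, at 22238 to 23793 on the liver arrays against 3955 and 3966 on the intestine arrays. The part of blood cells and fat in the other results was not tested. Of 18 genes used in every cell, 13 were not called, 4 were higher in intestine and 1 in liver (Gusb, 3.91-fold). Over all genes tested, 21.2% were higher in intestine and 18.8% in liver. The median of the 18 was -0.31 log2, which turned to 0.24 under 75th percentile scaling. Gapdh had 37048 to 46873 in liver and 129200 and 98415 in intestine (-1.44 ± 0.38 log2, adjusted p = 0.038), and Actb was 3.17-fold higher in intestine. Under 75th percentile scaling neither of them passed (adjusted p = 0.39 and 0.16).

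The LO-treated rats gave a second reading of the same contrast, from other animals on the same arrays and slides. All 1197 genes called higher in liver of control rats had the same sign in the LO rats, and 1169 passed the same threshold there. For the 1348 genes called higher in intestine, 1348 had the same sign and 1269 passed. The difference in LO rats lay within 2-fold of that in control rats for 1197 and 1345 of these genes, with a median absolute change of 0.09 and 0.11 log2. Both channels of an array share its slide and scan and were dye-normalized to each other, so that this reading is separate in animals but not in hybridization or normalization.

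**Figure D5:**
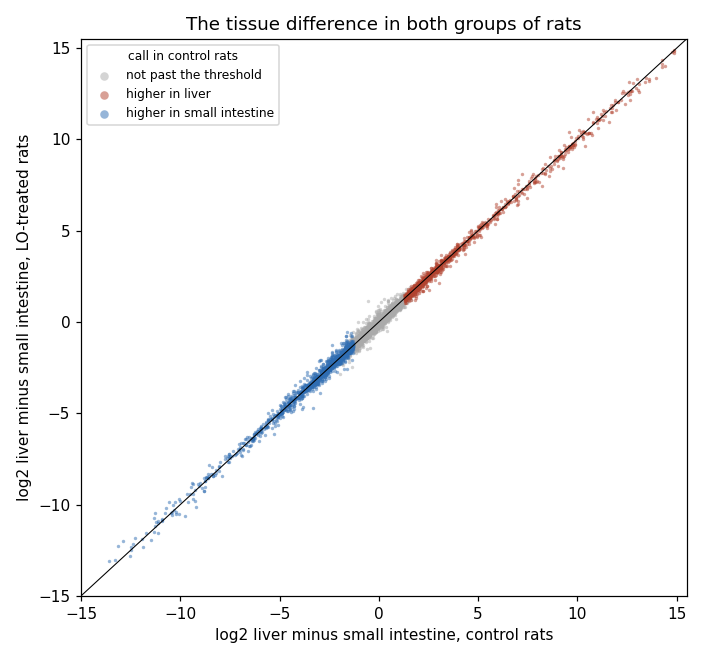
Log2 difference of liver minus small intestine in control rats (x axis) and in LO-treated rats (y axis), 1 point for each of 6366 genes, coloured by the call in control rats, with the line of equal difference. The points follow the line along its whole length, and 1345 of the 1348 intestine calls and all 1197 liver calls lie within 2-fold of it.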

How the data were processed

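The files hold 2-color dye-swap arrays (Agilent rat 4x44K). Per the labels, RNA was extracted with RNeasy Mini columns, and the submitters' processing notes name Agilent Feature Extraction 11.0.1.1. The signal intensity the authors deposited is background-subtracted and dye-normalized within the array, with dim features replaced by a positive surrogate, so differences of dim genes are uncertain. The flags deposited with it (well above background, saturated, non-uniform) and the deposited median intensity were also used. The authors' normalized value table was not used.

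From 43379 features of 41012 probes, 23 non-uniform ones were left out, and copies of a probe were averaged, which left 40990 probes. Control-channel signals of 6 arrays were quantile-scaled, taken to log2 and averaged over the dyes within each of 3 pools, and limma 3.58.1 (R 4.3.3) tested the 24993 probes well above background on every array of at least 1 tissue, with Benjamini-Hochberg adjustment and 1 residual degree of freedom among pools beside 4.41 prior ones. Replicate number equals dye. Deviations of same-numbered arrays correlated at 0.52, 0.19 and 0.15, so the numbers pair the arrays, and each tissue difference was taken within a dye. A lower bound sets the brighter tissue's mean against the higher of the dimmer probe's signal and the lowest signal well above background on that array. RefSeq accessions gave 10759 probes 1 symbol (8893 genes), and 30253 probes have none here. Named were the 10 widest differences each way measured in both tissues, the 10 highest bounds each way, and up to 6 genes a list with its defining markers, though more of the listed genes are given here. The members, lists and motifs were chosen with earlier results of these data known. The fit was tested on simulated data. Figures used Python 3.11.15, pandas 2.3.3, numpy 2.4.6 and matplotlib 3.10.9. Many listed genes are counted in their lists but not named here.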

Additional observations from a re-analysis of the deposited data

How the results depend on the processing

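The 40 genes named for the widest differences and bounds were called in the same direction under all 8 other fits tried for them, and had the same direction by at least 2-fold without liver G1 and without liver G2. Of the 181 named genes that passed, 181 passed in the same direction with the replicate block, with both channels together and in the LO channel alone, 179 under 75th percentile scaling, 177 under normexp correction (run on median intensity, with an offset of 50) and 174 without scaling. Some named genes that had not passed did so under other fits. Hnf4a, Khk and Krt18, for example, passed under 75th percentile scaling, under normexp and with both channels together. The numbers of probes called are less stable. Higher in liver and higher in intestine were 3494 and 4989 probes, against 4724 and 6281 with the replicate block (1476 and 1623 genes), which ended no call of a named gene and made 5 more pass (C1qa, Csf1r, Hnf4a, Khk and Krt18). Without a filter, 1440 and 1602 of 40990 probes passed (569 and 546 genes), without scaling 8490 probes and 2065 genes were higher in intestine, under normexp 3298 were, and with probes well above background on all 6 arrays 2877 of 15998 were. An adjusted p under 0.01 left 1709 and 2172, and a 4-fold threshold 2173 and 3171. Leaving out 1 replicate, which leaves 1 dye, gave 2564 to 3032 probes higher in liver and 3432 to 4071 in intestine (934 to 1062 and 1012 to 1137 genes). For probes at least 2-fold apart in every array pair, it gave 4116 to 4374 and 5641 to 6172. That count was 2495 for liver without scaling, 2250 and 2638 under normexp, 2205 for intestine with the filter on all 6 arrays, and 1769 and 2131 at 4-fold. Leaving out the acinar and islet lists, chosen after seeing the data, only takes their own called genes off the count (1326 genes higher in intestine). Leaving out the red blood cell list does the same for liver (1192 genes). These counts do not test the part of pancreatic RNA or blood in the other genes.

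Under 75th percentile scaling, Gapdh and Actb no longer passed, and the list medians for fat absorption and for genes used in every cell turned to 0.59 and 0.24. Without scaling, Acadvl, Cfd, Foxa3, Gapdh, Nr1i2, Sds and Slc23a1 did not pass, and under normexp Cyp1b1, Gfap, Iapp and Ppy did not. The median of the insulin-like growth factor axis dropped to 0.49 log2 under normexp and to 0.82 in the LO channel. Without replicate 1, 12 named calls were lost (Acadvl, Actb, Cfd, Enpep, Foxa3, Gapdh, Gfap, Iapp, Nr1i2, Otc, Sds and Slc40a1), and without replicate 2, 9 (Acadvl, Ascl2, Cyp1b1, Foxa3, Mep1a, Nr1i2, Ppy, RatNP-3b and Reln), all of them with the same direction. Only differences that had not passed changed sign. They were, under 75th percentile scaling, Acadl (0.39 log2), Apoa1 (0.59), Apoa4 (0.62) and Hadha (0.23), and without scaling Cd3d (-0.55), Gsta3 (-0.11) and Xpnpep2 (-0.16). Others were Cd3d under normexp (-0.0087) and in the LO channel (-0.015), Acadl (0.023), Hadha (0.021) and Cdc20 (0.33) in the LO channel, Cdc20 with both channels (0.12), and Fabp1 without replicate 1 (-0.18). The causes were not tested. Leaving out liver G1 or G2 moved RatNP-3b to -6.01 or -8.67 log2 and Pdx1 to -4.82 or -7.07. Signal over background also limits the intestine-high genes, since 374 of them were not well above background on any liver array and 259 of these have a bound of at least 2-fold.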
